A study of Mus musculus with 6 samples.

Results

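Peptidergic sensory neurons that carry transcripts of the somatostatin receptor gene Sstr2 were picked out of a single-cell census of mouse dorsal root ganglia. A cell belonged to this population when it held at least 3 unique molecular identifiers (UMIs, each standing for 1 captured transcript) of Calca, at least 1 of Sstr2 and at least 1 of Adcyap1 and Zcchc12 together. It also had to hold no Fgg, no Chrna3 or Slc5a7, under 3 UMIs of Mrgprd and Lpar3, and under 5 of Sst and Nppb. Of 21685 cells, 337 (1.55%) met this rule, and they are called Sstr2 neurons here. After removal of 1 cell of low quality and 7 likely doublets, 329 remained, with 53, 59, 37, 38, 75 and 67 in mice 654, 657, 670, 671, 698 and 699. Values per mouse are given in that order throughout.

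The study set 3 groups of 2 mice side by side. The deficient group held Ttpa-/- mice 654 (female) and 657 (male), fed without vitamin E. The supplemented group held Ttpa-/- mice 670 (male) and 671 (female), fed added vitamin E, and all 4 were aged 6 months. Mice 698 (female) and 699 (male) were wild type (Ttpa+/+) on a basal diet, aged 5 months. Age and diet therefore cannot be told apart from genotype in comparisons with wild type. The labels used here do not give the strain, the kind of Ttpa disruption or the spinal levels of the ganglia.

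The product of Ttpa is a liver protein that binds alpha-tocopherol and keeps vitamin E in the circulation, and its loss leads to vitamin E deficiency and ataxia. Peptidergic nociceptors are sensory neurons that detect harmful stimuli and release neuropeptides such as calcitonin gene-related peptide (the product of Calca) and substance P (from Tac1), both in the spinal cord and in the skin. Sstr2 encodes a Gi-coupled receptor through which somatostatin inhibits neurons, and Adcyap1 encodes the neuropeptide PACAP, whose receptors raise cyclic AMP. Sensory neurons fall into several peptidergic classes, and an Fgg class and a Chrna3 class served here as the closest comparisons.

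The promoters of the genes that define these cells are shown because Sstr2 and Adcyap1 set the membership and Npy1r is a marker that the rule did not use. Each sequence runs from 250 bases before to 50 after the start of transcription, in RefSeq annotation of mouse assembly GRCm38.p6. Motifs were searched on both strands: the full cyclic AMP response element TGACGTCA, its core TGACG (which also lies inside the full element), and the AP-1 site TGACTCA. Capitals mark matches, and TGAGTCA is the AP-1 site read on the other strand.
Sstr2 (chr11:113619077-113619376, plus strand): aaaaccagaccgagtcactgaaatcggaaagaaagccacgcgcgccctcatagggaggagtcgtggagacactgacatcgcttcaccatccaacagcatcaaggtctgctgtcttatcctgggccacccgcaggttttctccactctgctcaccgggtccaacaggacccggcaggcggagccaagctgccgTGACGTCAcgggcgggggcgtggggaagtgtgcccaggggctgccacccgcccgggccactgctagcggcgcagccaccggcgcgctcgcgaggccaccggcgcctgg
Adcyap1 (chr17:93198767-93199066, plus strand): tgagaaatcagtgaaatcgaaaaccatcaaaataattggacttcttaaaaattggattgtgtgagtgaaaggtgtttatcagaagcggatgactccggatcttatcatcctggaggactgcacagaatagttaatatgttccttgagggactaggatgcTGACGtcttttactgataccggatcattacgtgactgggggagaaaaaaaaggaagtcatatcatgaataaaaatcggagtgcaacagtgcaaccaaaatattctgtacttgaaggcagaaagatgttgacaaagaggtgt
Npy1r (chr8:66697172-66697471, plus strand): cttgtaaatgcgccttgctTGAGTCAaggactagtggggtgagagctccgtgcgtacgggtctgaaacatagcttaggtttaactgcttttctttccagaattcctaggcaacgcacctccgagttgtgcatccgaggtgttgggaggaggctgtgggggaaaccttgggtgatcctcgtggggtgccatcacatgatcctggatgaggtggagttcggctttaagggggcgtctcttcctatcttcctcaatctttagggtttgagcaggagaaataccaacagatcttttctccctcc

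The Sstr2 promoter held the full element at position -58 from the start, and none of the other 5 marker genes (Calca, Adcyap1, Zcchc12, Npy1r, Bcl11a) held one. Over 32851 mouse promoters of this length, 1.79% held it. The core occurred in 4 of the 6 marker genes (Calca, Sstr2, Adcyap1 and Zcchc12). Counted by promoter it occurred in 5 of the 7 entries of these genes, against 20.8% of all promoters. In the Adcyap1 promoter shown it stood at position -91. A second Adcyap1 entry, with a later start, held it at position -242. The AP-1 site occurred in Npy1r alone among the 6, at position -231, and in 5.20% of all promoters. These are matches of letters and say nothing of binding.

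Values of the rule's own genes are a description, since they chose the cells. Calca was at 5113, 4721, 4925, 4662, 4799 and 4329 CPM (UMIs of the gene divided by all UMIs of a mouse's Sstr2 neurons, times 1000000). Sstr2 was at 561, 388, 552, 522, 473 and 516 CPM, and no cell held more than 3 of its UMIs. Adcyap1 was at 1043, 781, 1161, 907, 1049 and 917 CPM. Zcchc12, a transcriptional coactivator, was at 211, 153, 156, 125, 172 and 206 CPM. Mouse 657, whose Sstr2 neurons had the highest median depth (2587 UMIs), had the lowest values of Sstr2 and Adcyap1. Adcyap1 alone met the third condition in 224 cells, Zcchc12 alone in 18 and both in 87.

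Membership rested on few molecules. Sstr2 was seen with exactly 1 UMI in 284 of the 329 cells, and 3098 cells that met every other condition held none. Calca stood at exactly 3 UMIs in 36 members, and 24 cells with 2 fell just outside. Adcyap1 and Zcchc12 summed to exactly 1 in 90 members and to 0 in 66 cells that otherwise qualified. Fgg alone kept out 19 cells, 9 of them with 1 UMI, and Chrna3 or Slc5a7 kept out 11, of which 7 held 1. The conditions on Mrgprd with Lpar3 and on Sst with Nppb kept out 0 further cells. The 329 cells are therefore the cells in which these transcripts were captured, and other cells of the type lie outside the rule.

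Npy1r and Bcl11a, named as markers of this type but absent from the rule, had the label's pattern. Npy1r encodes the neuropeptide Y receptor Y1, a Gi-coupled receptor found on peptidergic nociceptors. It was at 271, 147, 170, 193, 221 and 146 CPM in Sstr2 neurons, between 47.1 and 53.9 CPM in Fgg neurons, and between 9.35 and 29.2 CPM in Chrna3 neurons. The transcription factor gene Bcl11a was at 130, 135, 156, 147, 135 and 134 CPM, against at most 16.5 CPM in Fgg neurons and 9.74 to 91.2 CPM in Chrna3 neurons. For both genes the lowest Sstr2 value lay above the highest value of either other class. The fitted log2 differences were 1.89 ± 0.19 (SE) for Npy1r and 3.92 ± 0.29 for Bcl11a against Fgg neurons, and 3.62 ± 0.26 and 1.32 ± 0.23 against Chrna3 neurons. No test of these 2 genes is given because they were named as markers with results of these data known. Both are members of lists counted below, and that is said beside each count.

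At the level of single cells, 106 of the 329 Sstr2 neurons (32.2%) held a UMI of Npy1r and 89 (27.1%) one of Bcl11a. The range over mice was 23.7% to 38.7% for Npy1r and 22.6% to 29.3% for Bcl11a. With each cell thinned to 1500 UMIs, which left out 37 cells, the shares were 22.3% and 19.5%. As a measure of free RNA, 1153 Th neurons (median 5403 UMIs per cell) held Npy1r in 0.867% and Bcl11a in 0.434%. In 123 Mrgprd neurons (median 6665 UMIs) both stood at 0 cells, which allows a share of up to 2.44%. Both shares in Sstr2 neurons lay well above these levels, although their median depth was only 2249 UMIs.

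Cells with and without a Zcchc12 UMI differed little in the other markers. In the 105 cells with Zcchc12, Npy1r was at 192 CPM and Bcl11a at 151 CPM, against 185 and 131 CPM in the 224 cells without. Gal was at 909 against 862 CPM, and Tac1 at 2480 against 2792 CPM. These are values over pooled cells of 6 mice and carry no test.

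Markers of other neurons were absent for some classes and present for others. The 4 markers of the Mrgpra3 class (Mrgpra3, Mrgprx1, Mrgprb4, Cysltr1) gave 0 UMIs, as did Trpm8 and Foxp2 of cold-sensing neurons, and Il31ra, Htr1f, Nts and Cysltr2 of the Sst class. Over the 779451 UMIs of all Sstr2 neurons, a count of 0 allows up to 3.85 CPM. The 8 markers of the Sst class still summed to 118 to 188 CPM over mice, against 530 to 869 CPM in all other kept cells, with 6 of 8 at 0. The 13 markers of myelinated neurofilament neurons summed to 172 to 346 CPM (1088 to 1957 CPM in the other cells), with 5 at 0. The 6 markers of myelinated peptidergic neurons were all present, at 463 to 605 CPM in sum (618 to 1233 CPM in the other cells). The 5 markers of the Fgg class, Tac1 among them, summed to 2490 to 3341 CPM, above the 730 to 975 CPM of the other cells. Marker sums of the Chrna3, Mrgprd and Th classes were 18.2 to 141, 56.6 to 96.8 and 18.2 to 94.0 CPM. The other cells had 454 to 505, 488 to 904 and 883 to 984 CPM of these. Fgg, Chrna3 and Slc5a7 stood at 0 by the rule. Nefh, a neurofilament of large myelinated neurons, was seen in 17.6% of Sstr2 neurons, in 17.0% of Th neurons and in 41.5% of Mrgprd neurons, so that share is not read as expression. With cells thinned to 1500 UMIs these shares were 12%, 5.14% and 9.76%. Trpv1, the capsaicin receptor, was seen in 27.1% of Sstr2 neurons and in 0.607% of Th neurons. Car8 was seen in 13.1% of Sstr2 neurons (0.0867% of Th neurons), and those Sstr2 neurons were all in mice 670, 698 and 699, and is described with the genotypes. Markers of satellite glia and Schwann cells summed to 1694, 1086, 2972, 1372, 1281 and 1153 CPM, with 1 of 18 (Kcnj10) at 0. Markers of fibroblasts, vessels and immune cells summed to 211, 11.7, 326, 45.4, 48.4 and 18.2 CPM, with 7 of 17 at 0. Mouse 670 had the highest sum of both lists.

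Over the whole census, the 6 libraries held 2858 to 4098 cells, and the median depth of the 21024 kept cells ranged from 2500 to 4944 UMIs per library. Sstr2 neurons were shallow: 941 to 11862 UMIs per cell, with a median of 2249, against 3358.5 in the 646 Fgg neurons and 5249 in the 289 Chrna3 neurons. The summed counts of Sstr2 neurons came to 99755, 170292, 70656, 88169, 185860 and 164719 UMIs. The median mitochondrial share per cell was 4.98% to 5.96% over mice in Sstr2 neurons. It was 2.49% to 4.63% in Fgg neurons and 1.87% to 4.80% in Chrna3 neurons. Libraries shared 261 cell barcodes, carried by 12 Sstr2 neurons, and no barcode occurred in more than 1 Sstr2 neuron. Ttpa gave 4, 5, 1 and 4 UMIs over all kept cells of the Ttpa-/- mice and 0 in both wild type mice, where 0 allows up to 0.177 and 0.161 CPM. No source used here gives where the counted 3' ends lie relative to the disrupted part, so these counts do not check the genotype labels.

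The share of Sstr2 neurons among kept cells was lower in both supplemented mice than in the other 4, and the exact tests over mice did not pass 0.05. It was 1.34% in mouse 654 (95% exact binomial interval 1.0% to 1.75%) and 2.11% in mouse 657 (1.61% to 2.72%) on the deficient diet. In the supplemented mice it was 0.941% (0.663% to 1.29%) and 1.04% (0.734% to 1.42%). In wild type it was 2.25% (1.78% to 2.81%) and 2.01% (1.56% to 2.54%). The 2 deficient mice straddled the gap: 657 lay between the wild type mice and 654 close to the supplemented ones. With a stricter cell filter (at least 1000 genes and at most 10% mitochondrial UMIs) this order did not hold: deficient mouse 654 was at 0.917%, below supplemented mouse 671 at 0.982%. Intervals cover counting error only.

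Two-sided exact permutation tests over mice gave p = 0.667 for deficient against wild type, 0.33 for supplemented against wild type and 0.33 for deficient against supplemented, where 0.33 is the smallest p that 2 against 2 allows. Both Ttpa-/- groups against wild type gave an exact p of 0.267, where 0.13 is the smallest possible. The share moved with depth. Median UMIs of kept cells were 2851, 4944, 2500, 3468, 4025 and 4308, and the 3 libraries of lowest median had the 3 lowest shares. With every cell thinned to 3000 UMIs, only 38 members of 12447 cells remained, at 0.216%, 0.455%, 0.247%, 0.0468%, 0.371% and 0.443%. That step left out 2108, 591, 2316, 1534, 1174 and 854 shallower cells, and 654 and 670 then stood close together. Among cells with at least 3 UMIs of Calca, the share was 3.55%, 4.11%, 2.36%, 2.32%, 4.35% and 4.19%. Fewer cells of this type and fewer captured transcripts per cell both lower such a share and were not separated.

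**Figure D1:**
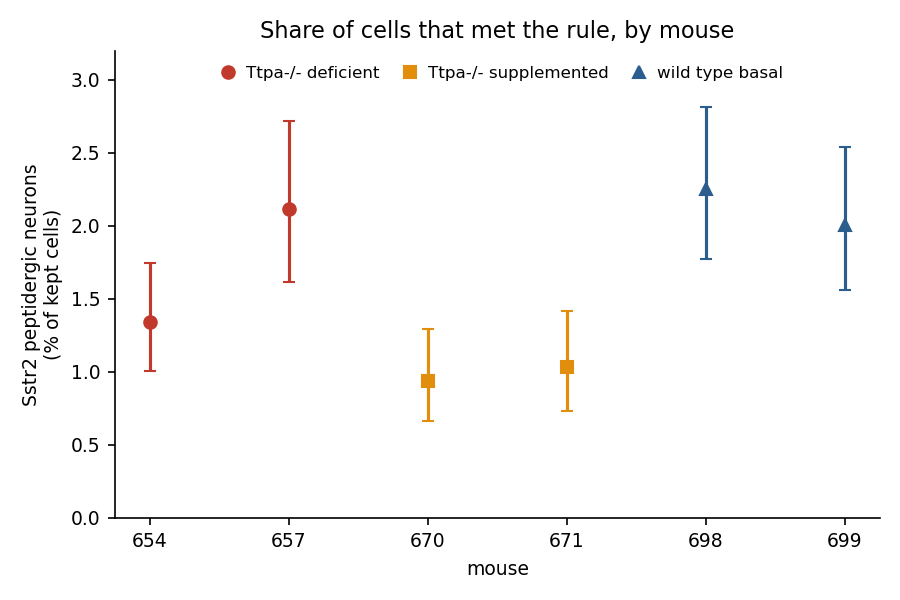
Share of kept cells that met the rule (vertical axis, percent) in each mouse (horizontal axis), with 95% exact binomial intervals as bars. The supplemented mice stand at 0.941% and 1.04%, the wild type mice at 2.25% and 2.01%, and the deficient mice at 1.34% and 2.11%.

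Sstr2 neurons were next set against Fgg and Chrna3 neurons, 2 other Calca-positive classes from the same animals, to see which genes set them apart. Counts were summed per mouse and class and tested with edgeR's quasi-likelihood test, mouse as a block and Benjamini-Hochberg adjustment over all genes (threshold 0.05). The rule genes of both classes were left out of the calls. Against Fgg neurons 1245 of 3958 genes passed (31.5%), 610 higher (15.4%) and 635 lower (16.0%) in Sstr2 neurons. Against Chrna3 neurons 1039 of 2924 passed (35.5%), 523 higher (17.9%) and 516 lower (17.6%). Counts of lists below stand against these shares, and a count near them is not read as a feature of the list. A gene below the limit of the filter on low counts in 1 class passed it only through the class where it was high. Its direction was then fixed by the filter, and its levels are a description. Counts of called genes and of lists include such genes. Both comparisons use the same Sstr2 sums, so their values are given side by side and no overlap is counted. All 3 classes were chosen by transcripts in the same cells, and the comparisons describe the cells so chosen.

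Neuropeptide genes differed from the other classes in both directions. Of 18 listed precursors, 6 passed the filter on low counts in each comparison. Against Fgg neurons 3 were higher and 2 lower (median log2 difference 0.41, all genes 0.01), and against Chrna3 neurons 2 were higher and 3 lower (median -0.47, all genes 0.00). Galanin (Gal), a peptide that modulates pain transmission, was at 912, 628, 708, 907, 974 and 1056 CPM. In Fgg neurons it was at 347 CPM in mouse 654 and at most 64.6 CPM in the other 5, so the classes did not overlap. The log2 difference was 3.37 ± 0.18 with an edgeR adjusted p of 2.28e-26. In Chrna3 neurons Gal was at 483 to 1860 CPM, around the Sstr2 values. A Gal UMI occurred in 72.6% of Sstr2 neurons and in 1.21% of Th neurons.

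Tac1, the precursor of substance P, gave the opposite picture. It was at 3017, 2255, 2194, 2597, 3099 and 2762 CPM in Sstr2 neurons, which overlapped with Fgg neurons (2150 to 2709 CPM). Chrna3 neurons had 615 to 1705 CPM, below every Sstr2 value, and the log2 difference was 1.26 ± 0.12 (edgeR adjusted p = 1.29e-12). Calcb, which encodes beta-CGRP, was lower in Sstr2 neurons than in either class. It was at 401, 440, 354, 386, 285 and 285 CPM, against 497 to 1340 CPM in Fgg and 803 to 1471 CPM in Chrna3 neurons. Neither class overlapped with Sstr2 neurons, at log2 differences of -1.14 ± 0.12 and -1.43 ± 0.12 (edgeR adjusted p = 1.75e-12 and 1.08e-13).

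Neuromedin B (Nmb), a bombesin-like peptide linked to itch, was lower as well, at 164 to 317 CPM against 323 to 561 and 331 to 600 CPM (log2 -0.99 ± 0.13 and -0.99 ± 0.15). Vgf, a secreted precursor of the granin family, was higher than in both classes (0.74 ± 0.21 and 1.23 ± 0.24). The CART precursor Cartpt was higher than in Fgg neurons (1.17 ± 0.19) and lower than in Chrna3 neurons (-1.12 ± 0.18). Its level varied most between mice: 80.2 CPM in mouse 654 against 212 to 442 CPM in the other 5. With DESeq2, Cartpt lost its call in both comparisons (adjusted p = 0.0920 and 0.0636) and Vgf that against Fgg neurons (0.0903). The growth factor gene Bdnf was at 420 to 622 CPM, above 162 to 216 CPM in Fgg and 29.3 to 125 CPM in Chrna3 neurons (1.32 ± 0.12 and 2.57 ± 0.17).

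**Figure D2:**
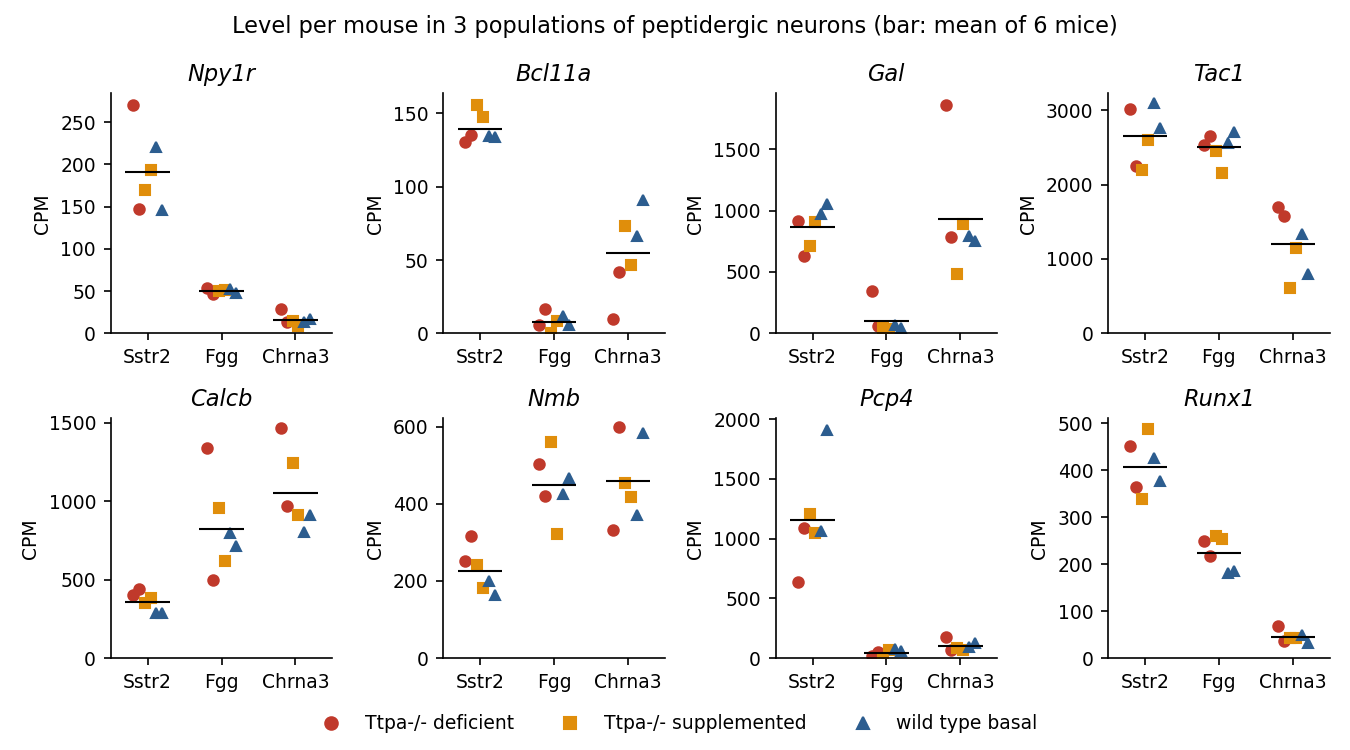
CPM of 8 genes (vertical axes, linear from 0) in Sstr2, Fgg and Chrna3 neurons (horizontal axes), 1 point per mouse, bar at the mean of 6 mice. Gal and Tac1 split the other classes in opposite ways, Calcb lies below both, and Npy1r, Bcl11a, Pcp4 and Runx1 lie above both.

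Of 12 tested genes that process and package peptides, 3 were higher and 4 lower than in Fgg neurons, where 15.4% and 16.0% of all genes were. Against Chrna3 neurons 1 was higher and 4 lower, where 17.9% and 17.6% of all genes were. The median log2 differences were -0.11 and -0.13. Syt4, a synaptotagmin of dense-core vesicles, was at 2307 to 3519 CPM against 1249 to 1620 and 733 to 1584 CPM (log2 1.10 ± 0.08 and 1.53 ± 0.10). Carboxypeptidase E (Cpe), which trims peptide precursors, was lower in both comparisons (-0.93 ± 0.12 and -0.69 ± 0.14). Scg3, a granin that loads precursors into granules, was at 50.1 to 99.1 CPM, below Fgg neurons at 151 to 292 CPM (-1.65 ± 0.18). Pam, the enzyme that amidates peptides including CGRP and substance P, was higher than in Fgg neurons (0.86 ± 0.11), with its level in mouse 671 described below.

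Receptors for trophic factors and transmitters were mostly low in counts, and 7 of 13 trophic receptors were tested against Fgg neurons (1 higher, 2 lower) and 5 against Chrna3 neurons (1 higher, 2 lower). Kit, the receptor of stem cell factor, was at 351, 329, 311, 306, 317 and 340 CPM, above the 114 to 165 CPM of Fgg neurons (log2 1.24 ± 0.13), and within the 242 to 372 CPM of Chrna3 neurons. Ngfr, the p75 neurotrophin receptor, was at 113 to 354 CPM, far below the 961 to 1568 CPM of Chrna3 neurons (-2.50 ± 0.15). Gfra2, the neurturin co-receptor, averaged 4.54 ± 5.29 CPM (SD, n = 6) against 74.0 ± 33.4 CPM in Fgg neurons, and was tested only through its level there.

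Among inhibitory receptors 3 of 8 tested were higher and 1 lower than in Fgg neurons, and 1 of 6 higher and 2 lower than in Chrna3 neurons. Npy1r is among the higher ones in both counts. Htr1b, a Gi-coupled serotonin receptor and a target of the triptans, was higher than in Fgg neurons (1.59 ± 0.27), at 48.6 to 161 CPM against 23.2 to 44.8 CPM. The cannabinoid receptor gene Cnr1 was lower than in Chrna3 neurons (-1.03 ± 0.22), at 60.7 to 123 CPM against 81.3 to 312 CPM, so the classes overlapped. Among excitatory receptors, S1pr3, a sphingosine-1-phosphate receptor of nociceptors, was higher in both comparisons (0.84 ± 0.16 and 1.26 ± 0.19). Lpar1, a lysophosphatidic acid receptor, was at 0 to 28.3 CPM against 69.0 to 115 CPM in Fgg neurons (-3.58 ± 0.40). It was tested only through its level in Fgg neurons.

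Ion channel genes differed in both directions. Of 12 potassium channel genes tested against Fgg neurons 4 were higher and 3 lower, and of 10 against Chrna3 neurons 2 were higher and 3 lower (medians 0.19 and 0.12). The background potassium channels Kcnk3 (TASK-1) and Kcnk2 (TREK-1) were at 64.6 to 212 and 124 to 194 CPM. Fgg neurons had at most 19.2 CPM of Kcnk3 and 32.9 CPM of Kcnk2, and the log2 differences were 3.69 ± 0.31 and 2.99 ± 0.23. Both genes passed the filter on low counts there only through Sstr2 neurons, so these differences are a description. Kcnk2 was also higher than in Chrna3 neurons (0.88 ± 0.19). Kcnc4, the fast Kv3.4 channel of nociceptors, was higher in both comparisons (1.52 ± 0.16 and 1.82 ± 0.18), and Kcnmb1, a subunit of BK channels, lower in both (-2.17 ± 0.23 and -2.10 ± 0.26).

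The mechanically gated channel gene Piezo2 was low in Sstr2 neurons, at 10.0, 70.5, 42.5, 34.0, 26.9 and 6.07 CPM, against 56.6 to 162 and 107 to 276 CPM in the other classes (-1.70 ± 0.30 and -2.62 ± 0.27). Trpa1, the irritant receptor, was lower in both comparisons too (-1.15 ± 0.34 and -2.38 ± 0.29). A Trpa1 UMI occurred in 5.17% of Sstr2 neurons, in 8.15% of the deeper Th neurons and in 31.7% of Mrgprd neurons. With cells thinned to 1500 UMIs these shares were 3.08%, 1.83% and 10.6%. The order of Sstr2 and Th neurons thus changed with depth, and the share is not read as expression. Trpv1 was at 79.4 to 161 CPM, overlapping with both Fgg (119 to 191 CPM) and Chrna3 neurons (64.1 to 321 CPM). Scn11a, the nociceptor sodium channel Nav1.9, was at 97.1 to 159 CPM, above the 22.2 to 59.2 CPM of Chrna3 neurons (1.62 ± 0.24), and Fgg neurons had a like level (101 to 166 CPM). Scn2b, a sodium channel subunit, averaged 1.99 ± 3.08 CPM (SD, n = 6) against 136 ± 64.4 CPM in Chrna3 neurons, and was tested only through its level there. Cacna2d1, which encodes the binding site of gabapentin, was higher in both comparisons (1.33 ± 0.09 and 1.11 ± 0.11), at 842 to 1071 CPM in every mouse.

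Of 18 lineage transcription factors tested in each comparison, 7 were higher and 3 lower than in Fgg neurons, and 8 higher and 5 lower than in Chrna3 neurons. Bcl11a is among the higher ones in both counts. Runx1, which is active in small unmyelinated neurons, was at 451, 364, 340, 488, 425 and 376 CPM. Fgg neurons had 180 to 260 CPM and Chrna3 neurons 32.0 to 68.2 CPM, so the classes stood in a clear order (log2 0.90 ± 0.12 and 3.32 ± 0.18). Pou4f3, a POU-domain factor, was at 113 to 241 CPM against 9.93 to 23.6 CPM in Fgg neurons (3.43 ± 0.25). In that comparison Pou4f3 was tested only through its level in Sstr2 neurons. It was also called higher than in Chrna3 neurons (0.62). That call was lost with DESeq2 (adjusted p = 0.119), with thinned sums (edgeR adjusted p = 0.451) and without mouse 654, 657 or 698. Isl2, a LIM-homeodomain factor, was lower in both comparisons (-1.71 ± 0.19 and -1.12 ± 0.22). Etv1 was lower than in Fgg neurons (-4.04 ± 0.33), and Nfia lower (-2.97 ± 0.27) and Tshz2 higher (1.16 ± 0.10) than in Chrna3 neurons.

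**Figure D3:**
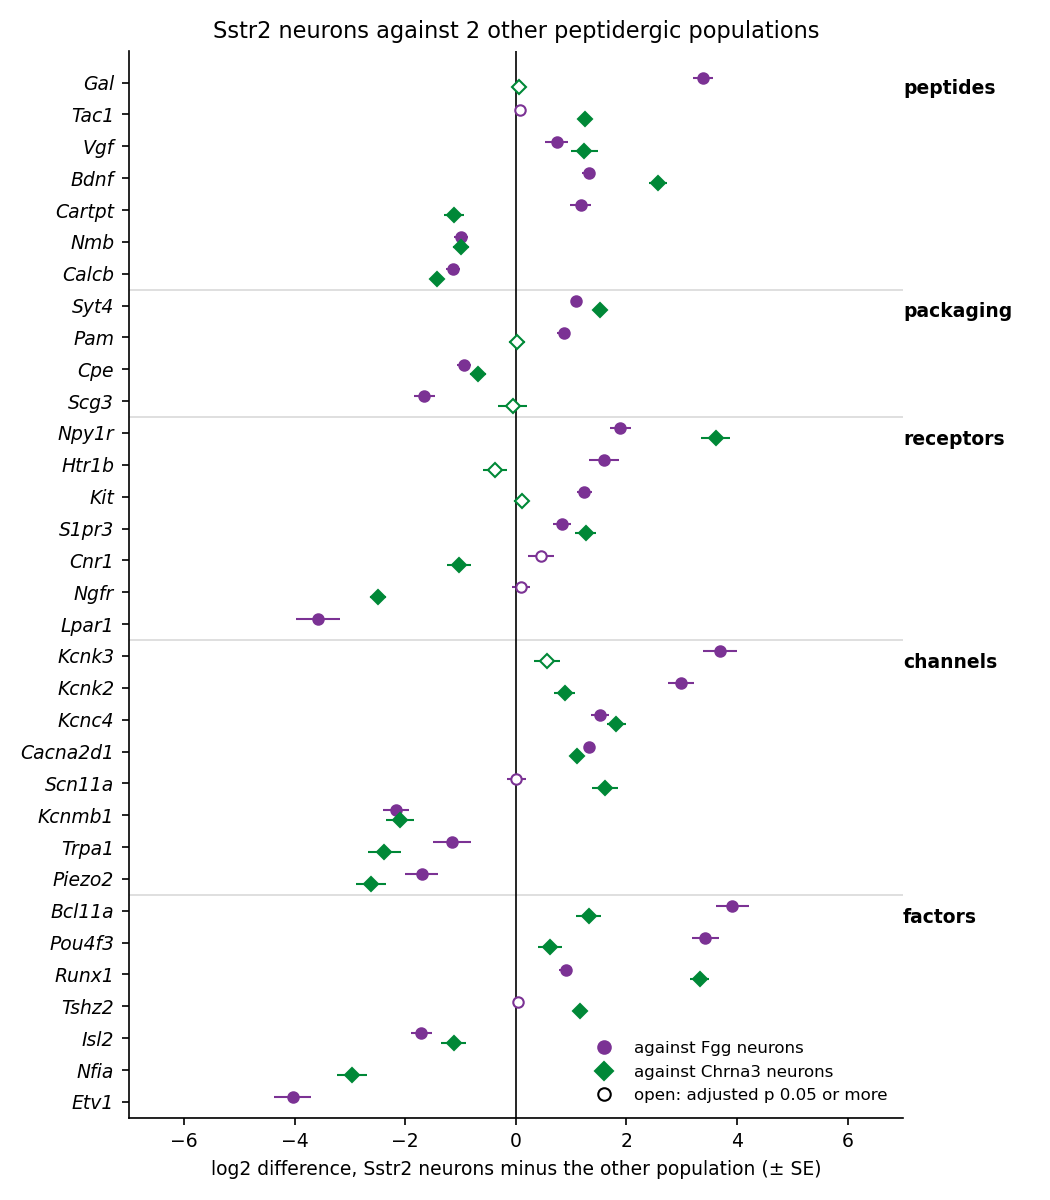
Log2 difference between Sstr2 neurons and Fgg neurons (circles) or Chrna3 neurons (diamonds) on the horizontal axis, with bars of ± 1 SE, for genes grouped by role. Filled symbols passed an edgeR adjusted p of 0.05 and open ones did not. The fill of Npy1r and Bcl11a is not read as a test, since both were named as markers with results of these data known. Nor is the fill of a gene tested only through the class where it was high. Kcnk3 and Pou4f3 against Fgg neurons are such genes. A missing symbol means that the gene had too few counts to be tested. Gal, Kcnk3 and Pou4f3 lie far right of 0 against Fgg neurons, and Ngfr, Piezo2 and Nfia far left against Chrna3 neurons.

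Outside these lists, Pcp4, a small regulator of calmodulin, gave the largest positive difference from Fgg neurons among genes with an average log2 CPM of at least 5 and all 6 mice in the same direction. It was at 642, 1092, 1203, 1043, 1065 and 1912 CPM, against 3.13 to 74.5 CPM in Fgg and 64.6 to 175 CPM in Chrna3 neurons. The log2 differences were 4.51 ± 0.15 and 3.74 ± 0.16, the second with an edgeR adjusted p of 1.51e-24. In the Fgg comparison Pcp4 was tested only through its level in Sstr2 neurons, so the first difference is a description. Cyp1b1, a cytochrome P450, was higher in both comparisons (3.47 ± 0.30 and 2.53 ± 0.29), and so was Litaf, an endosomal membrane protein (3.61 ± 0.30 and 2.35 ± 0.30). Ptprt, a receptor tyrosine phosphatase, was at 229 to 331 CPM, against 63.5 to 119 CPM in Fgg and at most 6.24 CPM in Chrna3 neurons.

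In the other direction, several genes of Fgg neurons were close to absent. Tmem233, a transmembrane protein gene, was at 0 to 28.3 CPM against 394 to 536 CPM (log2 -5.39 ± 0.25). Against Chrna3 neurons Tmem233 was lower as well (-3.84). Acpp, which encodes the acid phosphatase PAP that generates adenosine, was at 0 to 17.6 CPM against 150 to 226 CPM in Fgg neurons (-4.75 ± 0.35). Thy1, a surface glycoprotein of neurons, was at 0 to 35.2 CPM against 351 to 835 CPM in Chrna3 neurons (-5.07 ± 0.27). The serotonin channel gene Htr3a was at 0 to 41.1 CPM and lower than in Chrna3 neurons (-3.96 ± 0.34). Tmem233 and Acpp were tested against Fgg neurons only through their levels in Fgg neurons. Thy1 and Htr3a were likewise tested only through Chrna3 neurons, so these differences are a description. Of 14 cytoskeleton genes, 2 were higher and 9 lower than in Chrna3 neurons. Among the lower ones was Nefh, at 56.6 to 164 CPM (-2.10 ± 0.18).

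Of the listed immediate early genes, which respond within minutes to stimuli, 11 of 13 were higher than in Fgg neurons and 0 lower, with a median log2 difference of 0.81. Against Chrna3 neurons 10 of 10 were higher, with a median of 1.16. Jun was at 538 to 852 CPM against 218 to 281 and 62.4 to 117 CPM (log2 1.42 ± 0.11 and 2.92 ± 0.15). All 12 mitochondrially encoded genes tested against Fgg neurons were higher (median 0.79), and 11 of 11 against Chrna3 neurons (median 0.97). Among nuclear genes of oxidative phosphorylation, 1 of 46 was higher and 21 lower than in Fgg neurons, and 2 of 43 higher and 10 lower than in Chrna3 neurons. Of 20 antioxidant genes 4 were higher and 5 lower than in Fgg neurons (all genes 15.4% and 16.0%), and 3 higher and 6 lower than in Chrna3 neurons (all genes 17.9% and 17.6%), with medians of -0.17 and -0.21. Gpx3, a selenium-dependent peroxidase, was higher (0.62 ± 0.11 and 1.97 ± 0.17), and the ferritin light chain Ftl1 was lower (-0.88 ± 0.08 and -0.69 ± 0.09).

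These groups moved with the depth of the cells. When only cells with at least 2000 and under 6000 UMIs were used in each class (219, 479 and 166 cells), an alternative added after the data were seen, 539 of 2783 genes passed against Fgg neurons (19.4%) and 588 of 1930 against Chrna3 neurons (30.5%). Immediate early genes were then higher in 5 of 11 and 5 of 7, and mitochondrially encoded genes in 9 of 11 and 6 of 10. Oxidative phosphorylation genes were higher in 1 and lower in 2 of 43 against Fgg neurons, and higher in 8 and lower in 1 of 37 against Chrna3 neurons. Over all genes in these depth-matched fits, 261 were higher and 278 lower of 2783 against Fgg neurons. Against Chrna3 neurons 284 were higher and 304 lower of 1930. The counts of higher and lower calls in the oxidative phosphorylation list against Chrna3 neurons thus changed with depth, and neither direction is read as a feature of it. Not every called gene chosen for naming had enough counts to be tested at this depth. Among those tested, 50 kept their call and 8 lost it against Fgg neurons. Against Chrna3 neurons 40 kept it and 8 lost it. Of the genes named above, S1pr3 lost its call in both comparisons and Gpx3 lost its call against Fgg neurons. Nmb, Kcnk2 and Pou4f3 lost theirs against Chrna3 neurons.

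Between the study's groups, expression in Sstr2 neurons differed by little that the test could call. The question was whether the loss of Ttpa, with or without added vitamin E, altered transcripts in these cells. Counts per mouse were fitted over all 6 mice with edgeR, and 2846 genes were tested. For deficient against wild type 0 genes passed (0.0%), with 82 at an unadjusted p under 0.05, and DESeq2 and limma-voom called 0. For supplemented against wild type 0 passed (0.0%), with 152 at an unadjusted p under 0.05; DESeq2 called 1 and limma-voom 0. For deficient against supplemented 0 passed (0.0%), with 90 at an unadjusted p under 0.05, and the other tools called 0. For both Ttpa-/- groups against wild type 1 gene passed (0.0351%), Car8, with 128 at an unadjusted p under 0.05, and the other tools called 0. All contrasts but deficient against supplemented share the same 2 wild type mice.

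Car8 encodes a protein related to carbonic anhydrases that binds the inositol trisphosphate receptor and restrains calcium release, and in sensory neurons it is known to dampen pain. Sstr2 neurons held 0, 0, 3, 0, 29 and 18 UMIs of it, or 0, 0, 42.5, 0, 156 and 109 CPM. Mouse 670 was the only Ttpa-/- mouse with a count, and it lay below both wild type mice. Over both Ttpa-/- groups 3 UMIs stood against 47 in wild type, a ratio of wild type to Ttpa-/- of 19.2 (95% counting interval 6.17 to 96.3). The fitted log2 difference was -4.95 ± 0.80 with an edgeR adjusted p of 0.0353. Car8 passed the filter on low counts only through the wild type mice. Its direction was thus fixed by the filter, and the difference is a description. In the deficient mice the ratio of wild type to deficient was 12.1 with a floor of 3 counts taken over the group. The 95% counting interval of that ratio began at 9.43. The contrast of deficient against wild type missed the threshold for Car8 (edgeR adjusted p = 0.0553).

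The same order of mice appeared outside Sstr2 neurons. Fgg neurons held 1, 1, 18, 0, 68 and 43 UMIs of Car8, and wild type exceeded Ttpa-/- by a ratio of 7.74 (95% counting interval 4.78 to 13.2). Chrna3 neurons held 0, 0, 1, 0, 15 and 6 UMIs. All other kept cells stood at 1.13, 1.65, 17.0, 1.37, 35.4 and 22.8 CPM. A test of whether the genotype difference in Sstr2 neurons differed from that in all other cells gave a log2 interaction of -1.52 ± 0.86 (edgeR adjusted p = 1.0). The Car8 call was lost with DESeq2 (adjusted p = 0.999) and limma-voom (0.700), and when mouse 657, 698 or 699 was left out (edgeR adjusted p = 0.0632, 0.694 and 0.140). The fitted log2 difference stayed near its size in these settings, at -4.65, -4.10, -4.90, -4.60 and -5.11 in that order.

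Car8 lies on chromosome 4 (GRCm38, chr4:8143362-8239041), 11.8 Mb from Ttpa on the same chromosome. Strain, littermate status and breeding are not given in the labels used here, so genotype at Ttpa cannot be told apart from the DNA linked to it. Of 16 listed genes of that stretch that were tested, within 16.2 Mb of Ttpa, Car8 was the only one called. Necab1, a calcium-binding protein gene 4.86 Mb from Ttpa, had a log2 difference of 1.39 and did not pass.

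**Figure D4:**
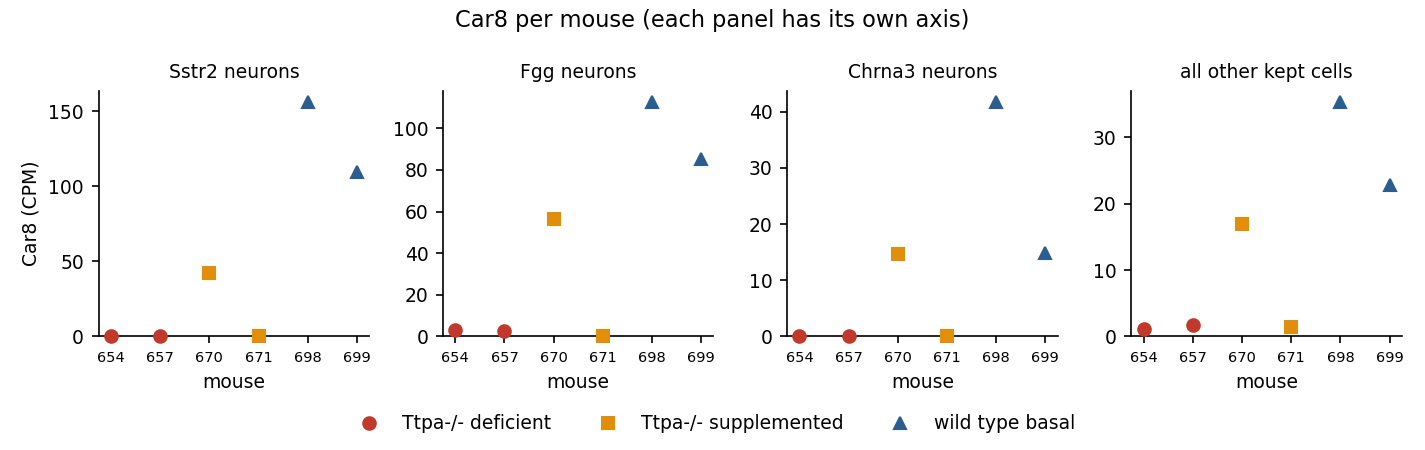
Car8 in CPM (vertical axes, linear from 0, each panel on its own scale) per mouse (horizontal axes) in Sstr2 neurons, Fgg neurons, Chrna3 neurons and all other kept cells. The wild type mice 698 and 699 and the supplemented mouse 670 stand above the other 3 mice in every panel.

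Genes closest to the threshold without passing it were few. Pam was at 742, 658, 807, 1803, 538 and 316 CPM, with mouse 671 far above the other 5. Its log2 difference was 1.63 ± 0.33 for supplemented against wild type (edgeR adjusted p = 0.310) and 1.14 ± 0.29 for both Ttpa-/- groups (edgeR adjusted p = 0.932). The first passed with DESeq2 (adjusted p = 0.0429), and in edgeR with a sex term (adjusted p = 0.0404), a stricter cell filter (0.0222), thinned sums (0.0188) and no filter on low counts (2.20e-05). It also passed without mouse 654, 657, 670 or 698, at log2 differences of 1.60 to 2.10. Without mouse 671 it was 0.83 (edgeR adjusted p = 0.524) and did not pass, nor did it pass without mouse 699. All other kept cells had 531, 440, 482, 653, 346 and 293 CPM of Pam, again with the highest value in mouse 671. Ngfr was at 200, 311, 354, 159, 113 and 115 CPM, so all 4 Ttpa-/- mice lay above both wild type mice (1.14 ± 0.31, edgeR adjusted p = 0.932).

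Hsf2, a heat shock transcription factor, was at 90.2, 99.8, 56.6, 181, 32.3 and 24.3 CPM (1.89 ± 0.51, edgeR adjusted p = 0.932). Apoe, a lipid carrier made by satellite glia, was at 401, 170, 764, 533, 237 and 285 CPM, highest in the supplemented mice (1.29 against wild type, not passing with all mice kept). The glial marker sum was highest in mouse 670 as well, and its part in the Apoe values was not tested. Apoe was also among the smallest p for deficient against supplemented, again not passing with all mice kept. Its log2 difference there was -1.91, -1.50, -1.28 and -1.30 without mouse 654, 671, 698 or 699. For supplemented against wild type it was 1.26, 1.29, 1.47 and 1.45 without mouse 654, 657, 671 or 699. Such fits leave a lone mouse in a group and assume that it varies like the others. Other genes with the smallest p were Vat1 (0.82), Etv5 (1.39) and Tlk1 (-1.15) for deficient against wild type. For deficient against supplemented they were Strap (3.30), Zc2hc1a (1.22), Sub1 (-0.95) and Lgmn (1.86), and none of these passed.

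The neuropeptides and pathway lists gave no further call between genotypes. Of 645 genes in 37 lists, 250 were tested for both Ttpa-/- groups against wild type. Of these, 18 had an unadjusted p under 0.05 (7.20%, against 4.50% of all genes tested) and 1 passed, Car8. That gene was tested only through its level in wild type. The 6 neuropeptide precursors ranged from -0.77 to 0.45 with a median of -0.17, against -0.01 over all genes. Calcb had a difference of 0.45 ± 0.20, Gal of -0.40 ± 0.20 and Vgf of -0.77 ± 0.33. The 19 antioxidant genes had a median of -0.06, the 12 mitochondrially encoded genes of -0.20 and the 43 nuclear oxidative phosphorylation genes of -0.07. Genes of vitamin E and lipid transport had 4 members tested, with a median of 0.31, led by Apoe (0.64 ± 0.27, edgeR adjusted p = 0.932). Npy1r and Bcl11a were at 0.01 ± 0.28 and 0.06 ± 0.27.

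S100a6, which encodes the calcium-binding protein calcyclin, was the 1 gene whose genotype difference in Sstr2 neurons departed from that in all other kept cells (0.00812% of 12318 genes tested). In Sstr2 neurons it was at 742, 1186, 863, 964, 1539 and 1603 CPM, so every Ttpa-/- mouse lay below both wild type mice. In all other kept cells it was at 3555, 3321, 3720, 3282, 3234 and 3349 CPM, without such a gap. The difference of the 2 genotype differences was -0.87 ± 0.17 on the log2 scale (edgeR interaction term with mouse as a block, adjusted p = 0.00570). Within Sstr2 neurons alone the difference between both Ttpa-/- groups and wild type was -0.75 ± 0.20 and did not pass (edgeR adjusted p = 0.932). Fgg neurons had 3335 to 4558 CPM and Chrna3 neurons 1752 to 2196 CPM, above the Sstr2 values in each. The interaction lost its call with thinned counts (edgeR adjusted p = 0.183) and without mouse 654, 670, 698 or 699 (edgeR adjusted p = 0.359, 0.0824, 0.232 and 0.762). Its size in these settings was -0.82, -0.75, -0.78, -0.88 and -0.87 in that order.

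**Figure D5:**
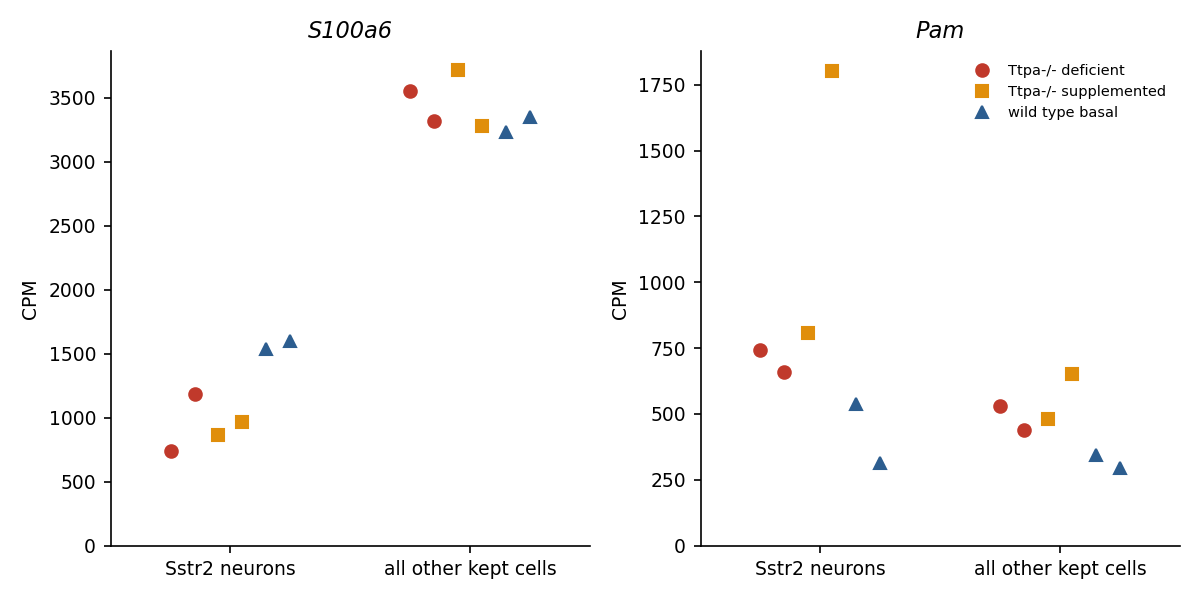
S100a6 and Pam in CPM (vertical axes, linear from 0), 1 point per mouse, in Sstr2 neurons and in all other kept cells (horizontal axes). S100a6 in Sstr2 neurons stands at 742 to 1186 in Ttpa-/- mice and at 1539 and 1603 in wild type; Pam stands at 1803 in mouse 671 and at most 807 in the other 5.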

How the data were processed

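UMI counts of 27998 genes in 21685 cells, from 3' v2 droplet libraries, were used as the authors deposited them. Per the submitters' processing notes, bcl2fastq 2.17.1.14, Cell Ranger 2.0.1, Seurat 2.3.0, limma 3.32.10 and mm10 were used. How the deposited cells were selected is not stated there. Cells under 500 genes or over 20% mitochondrial UMIs were removed (27). Doublets were scored per library with scrublet in scanpy 1.11.5; its automatic threshold marked 45 cells (0.208%), so the highest-scoring 634 (2.93%), the expected rate of 0.8% per 1000 cells, were removed, leaving 21024.

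Members and gene lists were chosen with earlier results of these data known. Counts were summed per mouse, the replicate, and tested in edgeR 4.0.16 (TMM, filterByExpr, quasi-likelihood, Benjamini-Hochberg, threshold 0.05) in R 4.3.3. DESeq2 1.42.0 and limma 3.58.1 were alternatives. Exact tests used scipy 1.17.1. Fgg neurons had at least 3 UMIs of Calca and at least 1 of Fgg, Chrna3 neurons at least 3 of Calca, at least 2 of Chrna3 and Slc5a7 and no Fgg; the other conditions were those of the Sstr2 rule, without its Sstr2, Adcyap1 and Zcchc12. Population comparisons have mouse as a block because both sums come from 1 animal. The fits were tested on simulated data. The biological coefficient of variation was 14.1% between mice of a group. A standard error (SE) belongs to a fitted log2 difference, and counting intervals and floors (3 counts) cover counting error only.

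Genes were named by rule: between groups, up to 10 called genes per direction or, with fewer than 5 calls, the 5 of smallest p; per list, up to 2 per direction by p; between populations, up to 12 per direction by fold at an average log2 CPM of at least 5 with all mice in 1 direction. Some genes that the rule named are not reported here. A gene named in 1 population comparison is given in the other where it passed there in the same direction. Alternatives are listed with their effect in the closing section.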

Additional observations from a re-analysis of the deposited data

Results flagged for a closer look

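S100a6 stood out because its genotype difference in Sstr2 neurons differed from that in all other kept cells by a test of the difference itself: -0.87 on the log2 scale (edgeR interaction term, adjusted p = 0.00570), with all 4 Ttpa-/- mice below both wild type mice in Sstr2 neurons. The call was lost with thinned counts and without mouse 654, 670, 698 or 699, at differences of -0.75 to -0.88.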

How the results depend on the processing

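Counts of called genes are given here per setting. Without a filter on low counts, deficient against wild type gave 2, supplemented against wild type 5, both Ttpa-/- groups 3 and the Chrna3 comparison 1569. DESeq2 gave 1 for supplemented against wild type, 0 for both Ttpa-/- groups, 723 against Fgg neurons and 645 against Chrna3 neurons, and limma-voom gave 0 for both Ttpa-/- groups. A sex term gave 1 (Pam) for supplemented against wild type, kept doublets gave 1 (Car8) for deficient against wild type, and a stricter cell filter gave 1 in each of these contrasts. With sums thinned to the smallest mouse, supplemented against wild type gave 1, both Ttpa-/- groups 0, the interaction 0, and the populations 443 of 1395 and 405 of 1374 genes tested. With cells of at least 2000 and under 6000 UMIs the populations gave 539 and 588, and 965 of 1006 and 718 of 767 main calls that could be tested kept their direction, and 479 and 438 were still called. Stricter membership left 17 cells and 165 genes tested, gave 0 for both Ttpa-/- groups and turned Actb for supplemented against wild type from 1.03 to -0.067; fewer cells were used there. Leaving out 1 mouse at a time gave 0 to 4, 1 to 10, 0 to 4 and 0 to 8 calls in the 4 group contrasts as ordered in the report, 0 to 5 for the interaction, 1011 to 1188 against Fgg and 765 to 1035 against Chrna3 neurons, sex-linked genes included; a lone mouse is then assumed to vary like the others. Without the replicate block on mouse, 1066 and 953 genes passed, and 1063 and 937 of the main calls remained. No paired analysis was possible between the study's groups because they share no mouse numbers. Of 2230 values of named genes under these settings, 2137 kept direction and side of the threshold, 51 lost a call, 41 gained one and 1 reversed. The cause of these changes was not tested. The 70656 UMIs of the smallest Sstr2 sum limit the group contrasts to genes of higher counts.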
